A study of Mus musculus with 6 samples.

Results

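The genes described here are the G1 cyclins Ccnd2, Ccnd3, Ccne1 and Ccne2, the kinases Cdk4 and Cdk6, the CDK inhibitors Cdkn1a (p21), Cdkn1b (p27) and Cdkn2c (p18), and the transcription factor Myc. All probes carrying one of these 10 gene names were taken, which gave 21 of the 41174 probes on the array and 10 of its 27376 gene names. They were measured in T cells without miR-31 and in control T cells after 4 days of culture under conditions that induce regulatory T cells (iTreg cells). Naive T cells were sorted from the spleens of 6-week-old mice as CD4+CD25-Foxp3gfp-CD62Lhi cells, a gate that reads a Foxp3 GFP reporter. The tissue is that of the labels, and the study's methods, which give the age, name lymph nodes as well. The 3 cKO mice were miR-31fl/fl/CD4Cre, in which Cre driven by Cd4 sequences deletes the floxed miR-31 gene in cells that express or once expressed Cd4. The 3 control mice are labelled only as controls. The study's methods name them as miR-31fl/fl and name no Cre for them, so that by these names Cre itself is present in the cKO group only. Mice of both groups had a C57BL/6 background, and every culture received plate-bound anti-CD3 at 5 μg/ml and anti-CD28 at 2 μg/ml. TGF-β1 was added at 5 ng/ml, and IL-2 at 40 ng/ml. These are the amounts in the labels; the study's methods state less IL-2. From each culture, 0.5 μg of RNA was labelled with Cy3 and hybridized to its own Agilent 1-colour whole mouse genome array. Neither the labels nor the study's methods describe a sort between the culture and the RNA extraction, and in such bulk RNA fewer cells of a type cannot be told apart from less RNA per cell.

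In a T cell leaving quiescence, Myc and the D-type cyclins come on first. Cyclin D proteins bind CDK4 and CDK6 and start the phosphorylation of the retinoblastoma protein, which releases E2F factors. E2F then drives Ccne1, Ccne2 and the genes of DNA replication, and cyclin E with CDK2 completes the step into S phase. The inhibitors act on different partners. The INK4 family, to which Cdkn2c belongs, binds CDK4 and CDK6 themselves, whereas p21 and p27 bind cyclin-CDK complexes and block those with CDK2. Cdkn1a is a classical target of p53 and is also induced by TGF-β, and p27 is high in resting T cells and is lost as they divide.

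The microRNA deleted in the cKO cells is printed from RefSeq (GRCm38.p6, chr4:88910614-88910635, minus strand), with the seed that pairs with target mRNAs, bases 2 to 8, in capitals. The number of probes named for it is 0, so its loss could not be read on these arrays.
miR-31-5p: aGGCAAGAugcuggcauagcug

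An array value is the hybridization of RNA to a stretch of 60 bases. For 4 of the genes on which the results turn, a probe from the coding part of the transcript is shown. That these stretches are coding is background knowledge of the proteins, and was not derived from an annotation here. The positions are those of the array's annotation (mm9), all on the plus strand. For Cdkn1b the annotated interval is shorter than the 60 bases printed.
Cdk4 (chr10:126501967-126502026): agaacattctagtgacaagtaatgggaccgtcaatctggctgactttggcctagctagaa
Cdkn1b (chr6:134871103-134871161): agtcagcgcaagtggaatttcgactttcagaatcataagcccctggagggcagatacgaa
Ccne2 (chr4:11130171-11130230): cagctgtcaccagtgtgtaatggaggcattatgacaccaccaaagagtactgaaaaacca
Myc (chr15:61820925-61820984): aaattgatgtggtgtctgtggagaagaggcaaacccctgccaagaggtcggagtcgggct

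Myc dimers bind the E-box CACGTG, and the bases before the Cdk4 start site hold this hexamer 4 times. It reads the same on both strands and its copies do not overlap. The 250 bases before the start (RefSeq, GRCm38.p6, chr10:127063285-127063534, plus strand) are printed with the E-boxes in capitals, which begin 172, 118, 98 and 11 bases before the start.
Cdk4 upstream: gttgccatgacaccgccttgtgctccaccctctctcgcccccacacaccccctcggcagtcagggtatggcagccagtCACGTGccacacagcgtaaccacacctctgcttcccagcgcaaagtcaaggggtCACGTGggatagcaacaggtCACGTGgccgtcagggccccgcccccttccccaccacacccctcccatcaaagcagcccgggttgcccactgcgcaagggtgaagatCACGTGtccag
Of the 32851 promoters in the table, 6.02% hold at least 1 E-box in such a window, and 7 promoters hold 4 or more. Upstream sequences were given for 7 of the 10 genes (10 start sites), and among these Cdk6 also holds 1 E-box. The p53 protein binds a pair of neighbouring half-sites, each around the letters CATG. The spacing CATGNNNNNNCATG, which is its own reverse complement, is found in 0.49% of the promoters and once among those of the 10 genes. It begins 48 bases before the more upstream of the 2 annotated Cdkn1a starts (GRCm38.p6, chr17:29090729-29090978, plus strand), where it is given in capitals. In all, 4 motifs were searched for on both strands, and at the 10 start sites their matches did not overlap. The E2F site, searched as TTTCCCGC or TTTGGCGC, is found in 1.3% of the promoters and at 0 of the 10 start sites. The GC box GGGCGG, a motif bound by Sp1, is found in 32.7% of the promoters and at 7 of the 10 start sites, with the most copies, 4, before the Ccne1 start. A match of letters is a description of the sequence and not a binding site, since no binding was measured, and no match says only that these letters are not in this window.
Cdkn1a upstream: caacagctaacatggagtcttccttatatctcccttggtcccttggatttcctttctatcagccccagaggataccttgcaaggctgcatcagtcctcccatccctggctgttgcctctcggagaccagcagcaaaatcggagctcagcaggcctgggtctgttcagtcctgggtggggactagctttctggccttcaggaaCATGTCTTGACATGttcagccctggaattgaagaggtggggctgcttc

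At the brightest probe of each of the 10 genes, Cdkn1a had the largest difference, 1.83-fold above control in the cKO cells, and Cdkn2c was 1.51-fold below control. The cyclins, Cdk4, Cdk6, Cdkn1b and Myc differed by less relative to the spread between arrays. None of the 10 passed the test after adjustment over all probes. Levels are given as log2 of the background-subtracted signal minus the 75th percentile of the same array, so a level of 0 is that 75th percentile. A difference is the cKO mean minus the control mean on this log2 scale, with the standard error (SE) of the limma fit. Levels are not compared from gene to gene, since probes differ in how brightly they hybridize. All 21 probes were well above background on all 6 arrays and were tested with the other probes that were above background on at least 3 arrays, 22281 in all. Where a gene has several probes, the brightest is given first. Precision is limited by there being 6 arrays. In an exact permutation test of 3 arrays against 3 the smallest 2-sided p is 0.10, so the comparisons rest on limma, which shares the spread across probes.

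By limma with Benjamini-Hochberg adjustment, 0 of the 10 genes and 0 of their 21 probes had an adjusted p under 0.05, against 0.13% of all tested probes (29 of 22281). At an unadjusted p under 0.05, the brightest probe was higher in cKO for 1 gene (Cdkn1a), against 11.7% of all tested probes, and lower for 1 gene (Cdkn2c), against 11.3%. The 3 cKO arrays all exceeded the 3 control arrays for 2 genes (Cdkn1a and Cdkn1b), and such a separation was found for 16.2% of all tested probes. The 3 cKO arrays were all under the 3 control arrays for 3 genes (Cdk4, Cdkn2c and Myc), against 20.4%. With 10 genes, shares of this size are near the background, and the counts are therefore no result about the genes as a group. The median difference of the 10 genes was -0.27, beside -0.04 for all tested probes.

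cKO array 3 stood apart from the other arrays. Of the 10 genes, 7 had their lowest level on this array and 1 (Cdkn1b) its highest. Its Pearson correlation with the other cKO arrays across the tested probes was 0.974 and 0.979, while cKO arrays 1 and 2 correlated at 0.985. The array weights of limma gave it 0.18, against 0.66 (cKO array 1) to 3.84 (control array 2) for the other arrays. On this array 57.7% of spots were well above background, where the other arrays had 49.3% to 57.1%, and the 75th percentile of its signal was the lowest of the 6, at 987 against 1048 to 1148. Values without it are therefore given beside those of the 10 genes and the gene lists. Without cKO array 3, the median difference of the 10 genes was -0.01. Then 1 gene was higher (Cdkn1a) and 2 were lower (Cdk4 and Cdkn2c) at an unadjusted p under 0.05, when 10.2% and 11% of all tested probes were. The groups were also spread unevenly over the slides, since slide 1 holds the 3 cKO arrays and control array 1 and slide 2 holds control arrays 2 and 3. Values within slide 1, with 1 control array, have no test of their own.

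**Figure D1:**
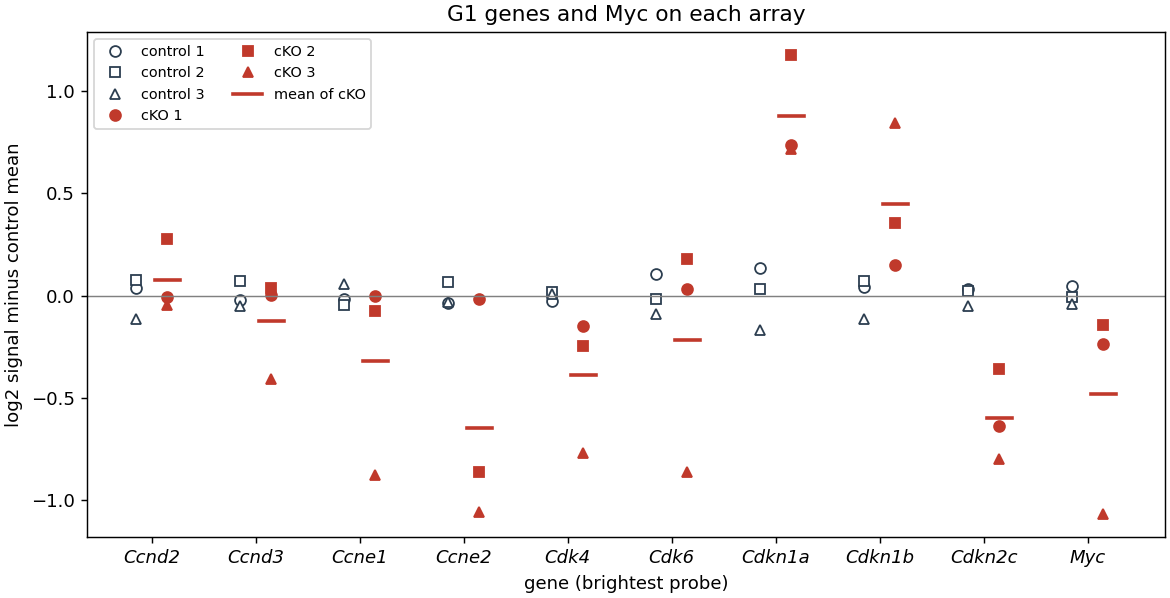
The vertical axis gives the log2 signal of each gene's brightest probe on each array minus the mean of the 3 control arrays, for control (open) and cKO (filled) arrays 1 to 3 (circle, square, triangle), and the red bar is the cKO mean. The cKO arrays all lie above the controls for Cdkn1a and Cdkn1b and all below for Cdk4, Cdkn2c and Myc, and cKO array 3 (filled triangle) lies lowest for 7 of the 10 genes.

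The D-type cyclins differed little. Ccnd2, the cyclin that growth factor and cytokine signals induce in T cells, had levels of 5.98, 6.26 and 5.94 on the cKO arrays and 6.02, 6.06 and 5.87 on the control arrays. The groups overlapped, and the difference was 0.08 ± 0.13 (SE; adjusted p = 0.732, limma). Without cKO array 3 it was 0.14. Its other probes gave differences of 0.13 and 0.07, so the 3 probes, which lie at separate places along the gene (mm9, chr6, minus strand), gave like values. The probe with 0.13 ranged from 0.023 to 0.20 when an array was left out. For Ccnd3, the D cyclin of lymphocyte development and proliferation, the levels were 5.04, 5.07 and 4.63 in cKO and 5.02, 5.11 and 4.99 in control. Only cKO array 3 lay outside the range of the controls. The difference of -0.12 ± 0.15 (SE; adjusted p = 0.617, limma) became 0.02 without that array.

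The E-type cyclins, which are E2F targets themselves and partner CDK2, were lower on some cKO arrays. Ccne1 had levels of 4.20, 4.12 and 3.32 in cKO and 4.18, 4.15 and 4.26 in control, so cKO array 3 was low and the other arrays overlapped. The difference of -0.32 ± 0.24 (SE; adjusted p = 0.439, limma) was -0.04 without cKO array 3. Its dimmer probe had a difference of -0.42, and -0.17 without that array. The groups of this probe only just did not overlap, with cKO array 1 at -0.416 and control array 1 at -0.411. The annotation places both Ccne1 probes at the same 24 bases although their sequences differ, and their positions are therefore not given. Ccne2 was at 0.32, -0.52 and -0.72 in cKO and at 0.30, 0.41 and 0.31 in control. Here cKO arrays 2 and 3 were low, while cKO array 1 lay within the controls. The difference was -0.64 ± 0.27 (SE; adjusted p = 0.224, limma), a 1.56-fold lower level, and -0.44 without cKO array 3. The other Ccne2 probe (mm9, chr4:11130287-11130346) gave -0.69 with groups that did not overlap (unadjusted p = 0.0212, adjusted p = 0.173, limma), and -0.50 without cKO array 3. The cKO arrays varied more than the controls for both genes, with an SD of 0.55 among cKO arrays and 0.06 among control arrays for Ccne2 (n = 3 each).

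Cdk4, the kinase partner of the D cyclins whose upstream E-boxes are printed above, was at 3.18, 3.08 and 2.56 in cKO and at 3.30, 3.35 and 3.33 in control. The 3 controls were nearly equal (SD 0.02, n = 3) and every cKO array lay below them. The difference was -0.39 ± 0.18 (SE; adjusted p = 0.244, limma), -0.20 without cKO array 3 and -0.36 within slide 1. Cdk6, the other kinase that pairs with D cyclins, had levels of 3.94, 4.09 and 3.05 in cKO and 4.02, 3.89 and 3.82 in control. cKO arrays 1 and 2 lay within or above the controls and cKO array 3 below. The difference of -0.22 ± 0.28 (SE; adjusted p = 0.647, limma) turned to 0.11 without cKO array 3. The 2 dimmer Cdk6 probes turned in the same way, from -0.10 to 0.15 and from -0.23 to 0.14.

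Cdkn1a, the p53 and TGF-β target p21, which inhibits cyclin-CDK2 complexes, is read by 1 probe spotted 10 times (mm9, chr17:29237377-29237436). Its levels were 3.43, 3.86 and 3.40 in cKO and 2.83, 2.72 and 2.52 in control, which means 3.57 ± 0.26 against 2.69 ± 0.15 (SD, n = 3 each). The groups did not overlap, and cKO array 3 was close to cKO array 1. The difference was 0.88 ± 0.17 (SE; unadjusted p = 0.00166, adjusted p = 0.0965, limma). It was 0.96 without cKO array 3 and 0.74 within slide 1.

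Cdkn1b, or p27, showed a higher level at each of 3 probes but a different size at each. The coding probe printed above, spotted 10 times, was at 1.07, 1.28 and 1.77 in cKO and at 0.97, 1.00 and 0.81 in control. Its groups did not overlap, although cKO array 1 was close to the controls. The difference was 0.45 ± 0.19 (SE; adjusted p = 0.228, limma), and 0.25 without cKO array 3. A probe 2503 bases farther downstream gave a difference of 0.71 (unadjusted p = 0.0373, adjusted p = 0.201, limma), and one 4112 bases downstream gave 1.18 (unadjusted p = 0.0198, adjusted p = 0.17, limma). These were 0.42 and 0.83 without cKO array 3. At this last probe the cKO arrays were spread widely, at 1.61, 0.60 and 2.15, above controls at 0.33, 0.30 and 0.21. Its level minus that of the coding probe on the same array was 0.54, -0.68 and 0.38 in cKO and -0.64, -0.70 and -0.60 in control. Relative to the coding probe, the distal probe was thus higher on cKO arrays 1 and 3, while cKO array 2 lay within the controls. For the probe 2503 bases downstream the same values were -2.46, -3.05 and -2.48 in cKO and -2.89, -2.95 and -2.95 in control. There cKO arrays 1 and 3 lay above the controls and cKO array 2 below them.

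Cdkn2c, the INK4 inhibitor p18 that binds CDK4 and CDK6, differed in the opposite direction to p21 and p27. Its levels were 1.88, 2.16 and 1.72 in cKO and 2.55, 2.54 and 2.47 in control. Every cKO array was below every control. The difference was -0.60 ± 0.14 (SE; unadjusted p = 0.00437, adjusted p = 0.122, limma), -0.50 without cKO array 3 and -0.63 within slide 1. A second probe had levels of 1.71, 1.96 and 1.60 in cKO and 2.42, 2.39 and 2.37 in control, a difference of -0.64 ± 0.12 (SE; adjusted p = 0.0991, limma), and -0.56 without cKO array 3. The annotated positions of these probes share 40 bases (mm9, chr4:109333779-109333838 and chr4:109333757-109333818, minus strand), so they are not separate readings of the gene.

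Myc, which in activated T cells drives growth, ribosome production and the metabolic switch, was at 4.59, 4.68 and 3.76 in cKO and at 4.87, 4.82 and 4.78 in control at its brightest probe, spotted 10 times. All cKO arrays lay below the controls, cKO arrays 1 and 2 by a little and cKO array 3 by about 1 log2 unit. The difference was -0.48 ± 0.25 (SE; adjusted p = 0.288, limma), -0.19 without cKO array 3 and -0.53 within slide 1. The dimmer probes gave -0.48 and, for the coding probe printed above, -0.59, with groups that did not overlap in either case. Without cKO array 3 these were -0.19 and -0.27.

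**Figure D2:**
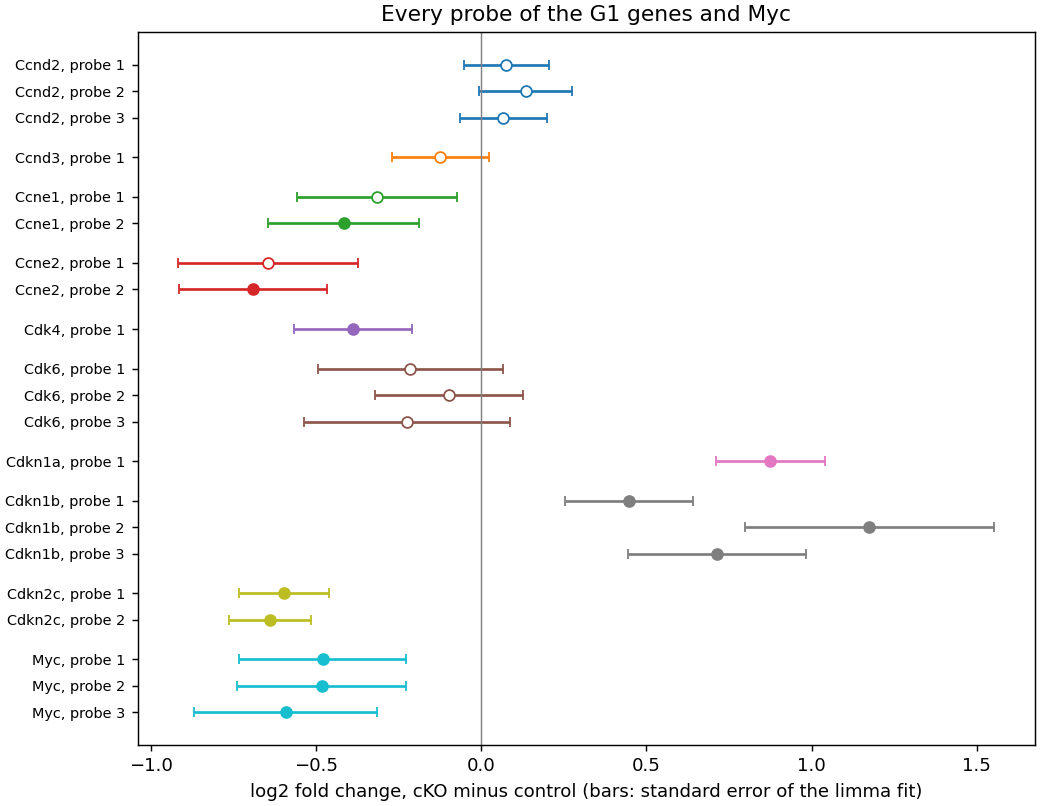
The horizontal axis gives the log2 fold change, cKO minus control, of each of the 21 probes with the standard error of the limma fit, with the probes of a gene numbered from the brightest and filled points marking groups that do not overlap. The Ccnd2 probes lie near 0, the Cdkn1a and Cdkn1b probes above 0, from 0.45 to 1.18, and the Cdkn2c and Myc probes below 0, from -0.64 to -0.48.

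**Figure D3:**
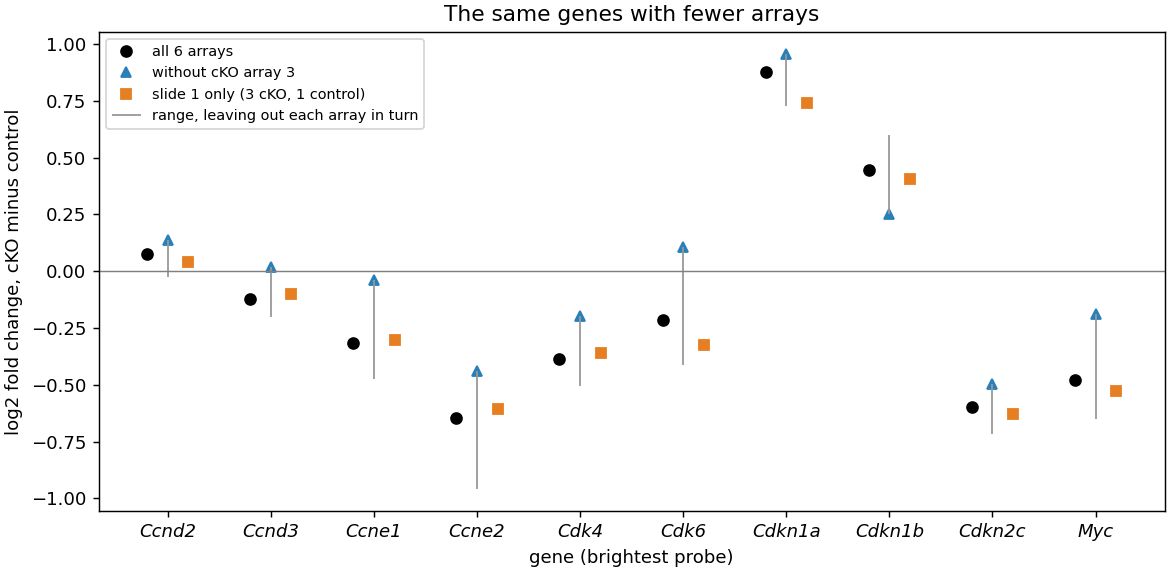
The vertical axis gives the log2 fold change, cKO minus control, of each gene's brightest probe over all 6 arrays (circle), without cKO array 3 (triangle) and within slide 1 (square), and the grey line is the range when each array is left out in turn. Cdkn1a keeps a difference of 0.73 to 0.96 and Cdkn2c one of -0.72 to -0.50, whereas Ccnd2, Ccnd3 and Cdk6 fall on both sides of 0.

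The remaining regulators of the same step were taken from a list of 34 genes on the array, of which 32 were tested. At an unadjusted p under 0.05, 3 were higher and 8 lower, with 0 at an adjusted p under 0.05 and a median difference of -0.24. The counts first given for this and the following lists stand beside the same 11.7% higher and 11.3% lower among all tested probes. The list medians stand beside a median of -0.04. By that median, somewhat more of all tested probes had a difference below 0 than above it, beside which the counts of signs are to be read. Genes of a list that vary together over the arrays are not separate readings. List counts depend on the arrays and on the model, as is given with each. A count from another fit stands beside the number of that fit among all tested probes, which also moved. Of these 22281 probes, 5118 had an unadjusted p under 0.05 in either direction. The number was 1639 with slide as a term, 4044 by the methods' t-test and 3650 with the replicate block. With normexp followed by the 75th percentile it was 1654. It was 6469, 4397 and 4727 without cKO array 1, 2 or 3, and 3698, 3085 and 2863 without control array 1, 2 or 3. In the list of G1 regulators, leaving out cKO array 3 gave 2 higher and 11 lower, with a median of -0.17. A fit with the slide gave 0 higher and 2 lower. Without control array 1, 2 or 3 the number lower was 3, 4 and 3, and without control array 3 the number higher was 1. Among the INK4 inhibitors, Cdkn2d (p19) was at 4.16, 4.21 and 4.46 in cKO and at 3.90, 3.80 and 3.67 in control. This difference of 0.49 (adjusted p = 0.138, limma) was opposite in sign to that of Cdkn2c. Cdkn2b was well above background on 2 of the arrays and Cdkn2a on 0, so neither was tested. Ccng2, a cyclin of growth-arrested cells, had the highest difference of the list, 0.69 (adjusted p = 0.202, limma). Its groups only just did not overlap, with cKO array 1 at 3.55 and control array 2 at 3.54. The Ccng2 difference was 0.54 without cKO array 3 and 0.48 without control array 3.

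Of the pocket proteins, Rbl1 (p107), an E2F target, was at 2.55, 2.46 and 2.07 in cKO and at 2.83, 2.94 and 2.92 in control, a difference of -0.54 (adjusted p = 0.148, limma). Rb1 and Rbl2 had differences of 0.35 and 0.56 with overlapping groups, which came to 0.15 and 0.25 without cKO array 3, and Rbl2 had 0.18 without control array 3. E2f8, a repressive E2F that E2F itself induces, had the lowest difference of the list, -0.70 (adjusted p = 0.179, limma), and E2f1 and E2f2 had -0.25 and 0.06. With cKO array 3 left out these 3 differences were -0.43, -0.057 and 0.17, and the lowest of the list was E2f6 with -0.59. Cdc25a, the phosphatase that activates CDK2, was at 1.91, 1.61 and 1.01 in cKO and at 2.14, 2.06 and 2.28 in control, a difference of -0.65 (adjusted p = 0.191, limma). Skp2, which targets p27 for degradation, had a difference of -0.38, and Cdk2 and Ccnd1 had -0.17 and -0.02, all 3 with overlapping groups. Leaving out cKO array 3 gave -0.40 for Cdc25a, -0.14 for Skp2 and -0.045 for Cdk2.

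The partners and antagonists of Myc were mostly near 0, with a median of 0.08, and 3 of 12 tested genes were higher and 1 lower at an unadjusted p under 0.05 (2 and 1 without cKO array 3, with a median of 0.079, and 0 in each direction with slide as a term). Without control array 2 or 3, 1 gene was higher, and without control array 1 or 2, 0 were lower. Max, the obligate partner of Myc, had a difference of -0.19 with overlapping groups, which was -0.089 or -0.28 when cKO array 2 or cKO array 1 was left out. The genes farthest from 0 were MAX-binding repressors. Mxi1 was at 2.40, 2.45 and 2.91 in cKO and at 2.02, 2.01 and 1.93 in control, a difference of 0.60 (adjusted p = 0.142, limma). Mxd4 was higher by 0.71 (adjusted p = 0.179, limma) and Mxd3 lower, at -0.45 (adjusted p = 0.189, limma), both with groups that did not overlap. They were 0.43 and -0.30 when cKO array 3 was left out. Mxd1 had 0.14 with overlapping groups (0.053 without cKO array 2 and 0.050 without control array 3), and Mycn was well above background on 1 array and not tested.

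Of 30 genes known to be induced by Myc, 13 were lower and 2 higher at an unadjusted p under 0.05. In 22 of the 30, all cKO arrays were under all control arrays, against a share of 20.4% among all tested probes. Their median difference was -0.54. The lowest was Nme1, a nucleoside diphosphate kinase, at 3.00, 2.69 and 1.65 in cKO and at 3.37, 3.32 and 3.59 in control, a difference of -0.98 (adjusted p = 0.187, limma). Cad, which starts pyrimidine synthesis, had -0.74 (adjusted p = 0.208, limma). Ncl and Npm1, nucleolar proteins of ribosome production, had 0.17 and -0.27 (-0.13 for Npm1 without cKO array 2), and Odc1, Tfrc and Slc7a5 had -0.09, -0.40 and -0.14, with overlapping groups except for Npm1. The highest was Eif4ebp1, an inhibitor of translation initiation, at 0.80 (adjusted p = 0.16, limma), and it was 0.81 without cKO array 3. The differences of Nme1, Cad and Tfrc were then -0.58, -0.41 and -0.12, and those of Odc1 and Slc7a5 were 0.22 and 0.17. Without cKO array 3 the median was -0.31, with 18 genes lower and 1 higher, and within slide 1 it was -0.51. The number lower was 0 with slide as a term, 1 when control array 1, 2 or 3 was left out, and 1 by the methods' t-test. The mean deviation of the 30 genes from the control mean was -0.18, -0.21 and -0.91 on cKO arrays 1, 2 and 3.

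The E2F targets of S phase deviated in the same order of arrays, by a mean of -0.19, -0.36 and -1.0 on cKO arrays 1, 2 and 3. Of 30 genes, 29 had a difference below 0, 11 were lower and 0 higher at an unadjusted p under 0.05, and the median was -0.50. In 24 of the 30, all cKO arrays were under all control arrays, against 20.4% of all tested probes. Rrm2, the regulated subunit of ribonucleotide reductase, was at 3.07, 2.33 and 2.73 in cKO and at 4.12, 3.86 and 3.90 in control. Its difference of -1.25 (adjusted p = 0.0745, limma) was the lowest of the list, and it did not rest on cKO array 3, being -1.26 without it. Mcm2, a subunit of the replicative helicase, had -0.74 (adjusted p = 0.211, limma), and Cdc6, Tk1 and Pcna had -0.64, -0.45 and -0.20. Unlike Rrm2 these 4 were nearer 0 without cKO array 3, at -0.40, -0.27, -0.20 and -0.060. Dbf4, the activator of CDC7 kinase, was the 1 gene above 0, at 0.11. The median was -0.24 without cKO array 3, with 13 genes lower, and within slide 1 it was -0.47. The number lower was 1 with slide as a term, 3 when control array 1, 2 or 3 was left out, 3 by the methods' t-test and 23 without cKO array 1. Among all tested probes, the number at an unadjusted p under 0.05 in either direction moved too. It changed from 5118 to 1639 with slide as a term, 4044 by the methods' t-test and 6469 without cKO array 1. Without control array 1, 2 or 3 it was 3698, 3085 and 2863.

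Mitosis genes, which act after S phase, also lay mostly below 0. Of 24 tested, 7 were lower and 0 higher at an unadjusted p under 0.05, with a median of -0.36. When cKO array 3 was left out, 6 were lower and the median was -0.18. The number lower was 0 with slide as a term, 1 with the replicate block and 2 by the methods' t-test, and without control array 1, 2 or 3 it was 3, 2 and 1. Kif20a, a kinesin of cytokinesis, had the lowest difference of -0.71 (adjusted p = 0.152, limma) and Top2a had -0.58 (adjusted p = 0.19, limma). Plk1, Ccnb1 and Mki67 had -0.44, -0.36 and -0.30, and Pttg1 had the highest difference, 0.24. On the 5 arrays other than cKO array 3, Kif20a had -0.62 and Top2a -0.36, while Plk1, Ccnb1 and Mki67 had -0.17, -0.12 and -0.15 and Pttg1 0.086.

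The genes induced by p53, a list that leaves out Cdkn1a, lay mostly above 0. Of 18 tested, 16 had a difference above 0, 7 were higher and 1 lower at an unadjusted p under 0.05, and the median was 0.37. Bbc3 (PUMA), which promotes apoptosis, was at 2.31, 2.45 and 3.41 in cKO and at 1.66, 1.40 and 1.71 in control, a difference of 1.13 (adjusted p = 0.142, limma). Sesn2, a stress-induced inhibitor of mTORC1, had 0.85 (adjusted p = 0.151, limma) and Ccng1 had 0.35 (adjusted p = 0.207, limma). Mdm2, the p53 ubiquitin ligase, had 0.15, Gadd45a 0.62 and Bax 0.13, of which Bax had overlapping groups. The Gadd45a difference was 0.23 without cKO array 3, and Bbc3, Ccng1 and Bax were then at 0.79, 0.23 and 0.30. Within slide 1 Sesn2 had 0.48, Mdm2 0.085 and Bax -0.21. Aen, a nuclease of apoptotic cells, was the 1 lower gene at -0.46 (adjusted p = 0.211, limma), or -0.29 without cKO array 2. The number lower was 0 in 15 of the 21 alternatives, among them every fit without 1 array except that without cKO array 1. Without cKO array 3, 7 genes were higher and 0 lower, with a median of 0.24, and within slide 1 the median was 0.28. With normexp followed by the 75th percentile the median of the list was 0.17, where that of all tested probes was 0.10. The slide term without cKO replicate 3 gave a list median of 0.11. The number higher was 1 with slide as a term, 3 with normexp followed by the 75th percentile, and 4, 5 and 4 without control array 1, 2 or 3. Ccng1 stands in the list of G1 regulators too, and Btg2 in that of quiescence factors, while Cdc25a is counted both as a G1 regulator and as a gene induced by Myc.

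Of 19 T cell quiescence factors tested, 13 had a difference above 0 and 6 below, with a median of 0.12. At an unadjusted p under 0.05, 3 were higher and 2 lower (1 and 2 without cKO array 3, with a median of 0.063, and 0 in each direction with slide as a term). Leaving out single arrays gave 1 to 5 higher, with 5 without cKO array 1 and 1 without control array 3, and 1 to 3 lower, with 1 without cKO array 2 or control array 3. Klf2, Foxo1 and Btg1, factors of the resting state, had differences of 0.07, 0.10 and 0.12 with overlapping groups, and Tob1 had 0.17. The Foxo1 difference ranged from 0.063 to 0.16 when an array was left out. Il7r, the receptor of the survival cytokine IL-7, had the highest difference, 2.04 (adjusted p = 0.181, limma). Its levels were 2.67, 2.95 and 4.19 in cKO and 2.17, 1.71 and -0.19 in control, and the spread within each group was wide. The difference was 1.33 without control array 3, 1.58 without cKO array 3 and 1.10 within slide 1. Foxo4 had the lowest difference, -0.56, with overlapping groups. It was -0.32 without control array 3 and -0.065 within slide 1. Foxo3 was well above background on 1 array and was not tested. In all 7 lists 0 genes had an adjusted p under 0.05.

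**Figure D4:**
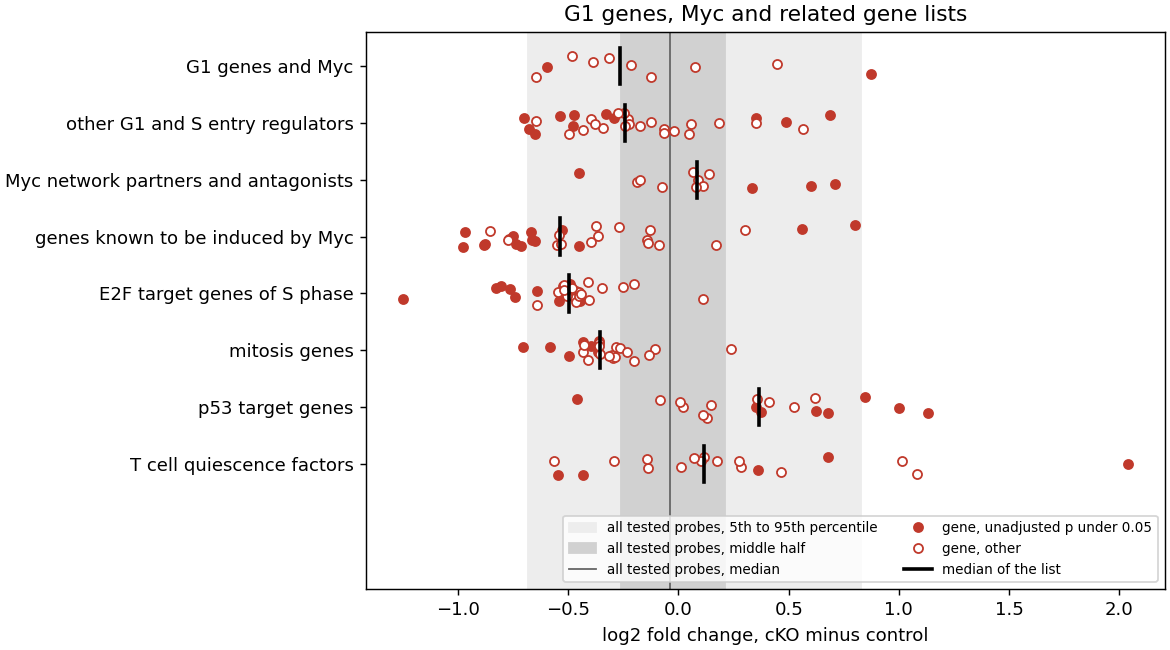
Each point is the log2 fold change, cKO minus control, of the brightest tested probe of a gene (filled, unadjusted p under 0.05), black bars are list medians, and grey bands show all tested probes. The medians of the genes induced by Myc (-0.54) and the E2F targets (-0.50) lie to the left of that of all tested probes (-0.04), and that of the p53 targets (0.37) lies to the right.

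The cultures were checked against markers of their labelled type and of other cells. All 10 T cell markers were tested, with a median difference of 0.19, or 0.095 without cKO array 3. Of these, 4 were higher (Cd3d, Cd3g, Cd28 and Cd4) and 1 lower (Cd3e) at an unadjusted p under 0.05, or 2 and 1 without cKO array 3, the ends of the list being Cd3g with 0.74 (0.47 without cKO array 3) and Cd3e with -0.27. All 8 Treg markers were tested, 5 with a difference above 0 and 3 below, with a median of 0.46, which was 0.22 without cKO array 3 and 0.018 within slide 1. Foxp3, the factor that defines Treg cells, was at 3.23, 3.19 and 2.53 in cKO and at 3.48, 3.48 and 3.81 in control, a difference of -0.61 (adjusted p = 0.191, limma), and -0.38 without cKO array 3. Ctla4 and Nrp1 were at the ends of the Treg list, with 0.94 and -0.76. Itgae, Tnfrsf4, Ikzf2 and Tnfrsf18 had 0.85, 0.52, 0.51 and 0.41 and Il2ra, the alpha chain of the IL-2 receptor, had -0.55. Of these 7, all but Ctla4 and Tnfrsf4 had overlapping groups. Itgae was at 3.37, 3.33 and 3.24 in cKO and at 3.26 and 2.63 on control arrays 1 and 2, with control array 3 lower still, and its difference was 0.37 without control array 3. Within slide 1 Itgae, Ikzf2, Tnfrsf18 and Nrp1 had 0.060, -0.02, 0.18 and -0.27. Il2ra had -0.21 and Ikzf2 0.12 without cKO array 3, and Tnfrsf4 had 0.31 without cKO array 2. Of the B cell markers, 1 of 7 was tested (Cd79b, with a difference of 0.61 and overlapping groups, or 0.27 without cKO array 3), and Cd22, Blk and Pax5 were not well above background on any array. Of the myeloid markers, 2 of 7 were tested, and Csf3r and Emr1 were not above background on any array. Cd68, a lysosomal protein abundant in macrophages, had a difference of 0.64 (unadjusted p = 0.029, adjusted p = 0.187, limma) with all cKO arrays above the controls, and Csf1r had 0.15 with overlapping groups, which turned to -0.053 without cKO array 3 and to -0.042 without control array 1.

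The summed signals of the NK, erythroid and epithelial markers were higher on most or all cKO arrays. As sums of the linear signal in units of the 75th percentile, the 4 NK markers came to 8.22, 1.59 and 9.18 in cKO and 1.92, 1.18 and 1.17 in control. The brightest of the 4 probes was that of Klrd1, which activated T cells can also express, with a difference of 1.89 (adjusted p = 0.201, limma) and overlapping groups, whereas Klrb1c was not above background on any array and Ncr1 and Klra8 were above it on 2 and 1 arrays, with Ncr1 higher and Klra8 lower on all cKO arrays than on the controls. The 5 erythroid markers, of which Hbb-b1 was the brightest on all arrays but control array 3 and Alas2 not above background, came to 0.58, 0.56 and 1.17 in cKO and 0.34, 0.43 and 0.23 in control. Hbb-b1 had a difference of 2.10 (adjusted p = 0.164, limma), 1.41 without control array 3, with all cKO arrays above the controls. Hba-a1, well above background on 2 arrays and not tested, went the other way, at -5.08, -5.04 and -6.50 in cKO and -4.01, -3.73 and -3.27 in control. The 5 epithelial markers, of which Cdh1 was the brightest and Krt8 and Krt19 not above background, came to 1.55, 1.37 and 2.06 in cKO and 0.93, 0.85 and 0.94 in control. Cdh1 (E-cadherin) had a difference of 1.02 (unadjusted p = 0.00879, adjusted p = 0.142, limma) and Epcam 0.62 (unadjusted p = 0.0132, adjusted p = 0.155, limma), both with all cKO arrays above the controls, and Krt18 had 0.45 with overlapping groups, or 0.22 without cKO array 3. The 7 B cell markers came to 0.59, 0.74 and 1.35 in cKO and 0.66, 0.67 and 0.42 in control, and the 7 myeloid markers to 0.28, 0.36 and 0.37 and to 0.26, 0.26 and 0.43. The 3 CD8 T cell markers summed to 5.15, 5.21 and 5.25 in cKO and 6.90, 5.66 and 6.18 in control, and the Cd8b1 probe was the brightest. Their differences were -0.17 (Cd8b1, or between -0.32 and -0.042 when an array was left out), -0.86 (Cd8a, or -0.49 without cKO array 3) and 0.17 (Eomes, or -0.38 without control array 3), all with overlapping groups. The part of these cells in the differences of the G1 genes was not tested.

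Over the 6 arrays, the levels of the G1 genes were set beside those of every other tested gene, and the 3 highest Pearson correlations were taken for each. With 6 arrays and 22281 probes, correlations of 0.99 are reached for every one of the genes, so they are a description only. The genes most like Cdkn1a were Tspan3, Lpin1 and Asah1 (r of 0.997, 0.997 and 0.996). For Cdkn1b they were Pold4, Lgals4 and Nudt13, and for Cdkn2c Armc10, Mob3a and Gatad2a. Myc was followed most closely by Pdss1, Wdr18 and Tars, all at 0.999. For Cdk4 they were Bzw1, 2410131K14Rik and Lig1, the ligase that joins the fragments of newly made DNA, and for Cdk6 Fbxw8, Aars and Zcrb1. Ccnd2 was most like Nfkbie, Myo1g and Snrnp25, and Ccnd3 most like Gmppb, Zc3hc1 and Surf4. Ccne1 was most like Psmb7 and 0610010F05Rik, and Ccne2 most like Cmc2 and Aar2, with a transcript that has no gene symbol as the remaining gene of each.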

How the data were processed

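RNA of 3 cKO and 3 control iTreg cultures, each from an individual mouse, was measured on Agilent 1-colour arrays. The deposited scanner files hold linear spot intensity values, which the authors extracted with Agilent Feature Extraction (version 9.1 per the submitters' processing notes, 10.7.3.1 per the file headers), with the background subtracted. The authors' table of log2 values has 1 value per probe and array, its columns have medians of 6.15, and it was used as an alternative; its scale fits the scanner values (r of 0.998 or higher). All its columns were assigned to samples. Each array holds 45018 spots, 0 of them saturated, and 123 to 140 outlier spots per array were dropped. Of the tested probes, 19 lacked a value on an array and were fitted on the remaining arrays; none of them reads the 10 genes.

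The spots of a probe were averaged as log2 of the processed signal, and the 75th percentile over the probes of the array was subtracted. Probes with a signal well above background in 3 or more of the 6 arrays were fitted in R 4.3.3 by lmFit and eBayes of limma 3.58.1, and p-values were adjusted by Benjamini-Hochberg across the 22281 probes, with 0.05 as the threshold. Tables used pandas 2.3.3 and numpy 2.4.6 under Python 3.11.15, plots matplotlib 3.10.9 and array weights statmod 1.5.0. When limma was tested on simulated data with 22281 probes, of which 200 were set to differ by 3 log2 units in cKO against control, it called 94% of these and 7 of the others. The largest difference at any probe of the genes described here was 1.18. The simulated arrays had independent noise, with no array that stood apart and no slides. This check therefore cannot tell how often changes of the sizes seen here would be called.

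The 10 genes and all gene lists were chosen with earlier results of these data known. A gene of a list is given by its brightest tested probe. The genes named are the 10 genes, list members picked for their role, the highest and lowest of each list, and the 3 genes most like each of the 10 over the arrays; E2f6 and the marker genes other than the highest and lowest of their list were chosen after their values were seen. Gene symbols, like the mm9 positions, come from the annotation in the scanner files, and for 18 of the 21 probes the transcript was matched to RefSeq, each under the same symbol. Promoter and miRNA sequences are from RefSeq.

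The alternatives were quantile or median scaling, normexp correction at an offset of 50 followed by the 75th percentile or by quantiles, the authors' table, other filters on dim probes, the methods' t-test, trend and robust fitting, array weights, replicate block, slide as a term or slide 1 only, each array left out, and the mean over a gene's probes. All changed a single choice except normexp with quantiles, which changed the background correction and the scaling together. A percentile over spots, and the slide term without cKO replicate 3 (model and samples together), were added after seeing the data. The labels and the study's methods name different RNA extraction kits. Replicate numbers were not taken as pairs of the groups in the main fit. The deviations of same-numbered arrays had correlations of -0.14, 0.01 and -0.19. With 3 arrays per group and an uneven spread over the slides, these cannot decide whether the cultures were paired. The arrays' p-values measure the spread between these 6 cultures.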

Additional observations from a re-analysis of the deposited data

How the results depend on the processing

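Of all tested probes, 29 had an adjusted p under 0.05. The number was 115 with normexp correction and quantile scaling, 79 with the median as the scaling point, 175 when only probes above background on all arrays were kept, 98 with trend and robust fitting, 656 with array weights and 54 with the percentile over spots. It was 0 when dim probes were kept, with normexp followed by the 75th percentile, by the methods' t-test after adjustment (4044 at its own threshold), with slide as a term and with that term without cKO replicate 3, and it lay between 0 and 1 when any of the arrays was left out. With the replicate block it was 0, with 3650 probes at an unadjusted p under 0.05, where 5118 had been, and the block changed no call among the 10 genes. The cause of these changes was not tested. Each fit without an array had 2 left in that group.

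The number of the 10 genes with an adjusted p under 0.05 stayed at 0 in every alternative with a test except array weights, which gave 1 (Cdkn1a, 0.97, adjusted p = 0.0372), with the dimmer Cdkn2c probe (-0.54, adjusted p = 0.0481). The number at an unadjusted p under 0.05 was 2. With normexp followed by the 75th percentile it was 1 (Cdkn2c), 5 with array weights, and 4 with only probes above background on all arrays, with trend and robust fitting, and with the mean over a gene's probes, each of which added Ccne2 and Cdkn1b, and array weights Cdk4 too. Among all tested probes the number moved as well, from 5118 to 1654 with that normexp setting and to 6413 with array weights. It was 4967 of 19352 with the stricter filter, 5419 with trend and robust fitting, and 3359 of 14357 with the mean over a gene's probes. When an array was left out, the number among the 10 genes ranged from 2 to 5, and that among all tested probes from 2863 to 6469. Over all alternatives Cdkn1a lay between 0.63 and 0.97 and Cdkn2c between -0.72 and -0.49, and Cdk4, Cdkn1b, Ccne2 and Myc kept their sign. Rrm2 had an adjusted p of 0.0498 when only probes above background on all arrays were kept and 0.0369 with array weights.

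Some differences changed sign, most of them near 0 but also Rbl2 (0.56), Foxo4 (-0.56), Tfrc (-0.40) and Skp2 (-0.38). When each array was left out, the ranges were -0.026 to 0.14 for Ccnd2 (dimmest probe -0.041 to 0.14), -0.20 to 0.018 for Ccnd3, -0.41 to 0.11, -0.23 to 0.15 and -0.43 to 0.14 for the Cdk6 probes, -0.00093 to 0.17 for E2f2, -0.29 to 0.28 for Ccnd1, -0.43 to 0.22 for Odc1, -0.026 to 0.34 for Ncl, -0.36 to 0.17 for Slc7a5, -0.19 to 0.30 for Bax, -0.024 to 0.19 for Btg1 and -0.011 to 0.16 for Klf2. Normexp with the 75th percentile, which moved the median of all tested probes to 0.10, turned Ccnd2 (-0.14, -0.074 and -0.18 for its probes), the dimmer Cdk6 probes (0.085 and 0.40), E2f2 (-0.18), Skp2 (0.067), Cdk2 (0.61), Ccnd1 (0.85), Mxd1 (-0.10), Ncl (-0.11), Pttg1 (-0.0033), Btg1 (-0.13), Foxo1 (-0.15), Klf2 (-0.18) and Foxo4 (0.55). It also gave the Myc partners a median of -0.11. Normexp with quantile scaling turned Ccnd1 (0.0083). Array weights turned Cdk6 (0.043, 0.087 and 0.033 for its probes), Odc1 (0.29), Slc7a5 (0.048) and Klf2 (-0.075). Slide as a term, which equals the value within slide 1, turned Cdk2 (0.054), Ncl (-0.13) and Bax (-0.21). Without cKO replicate 3 the slide term turned Ccnd3 (0.040), the dimmer Cdk6 probes (0.10 and 0.13), Rbl2 (-0.20), Cdk2 (0.18), Odc1 (0.22), Ncl (-0.10), Tfrc (0.042), Slc7a5 (0.058), Pcna (0.052), Pttg1 (-0.036), Bax (-0.040) and Foxo4 (0.028). The mean over a gene's probes turned Odc1 (0.011), Ncl (-0.34) and Dbf4 (-0.036).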
